A study of Rattus norvegicus with 6 samples.

Results

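The 10 genes described here encode transcription factors that build and maintain the Schwann cell lineage, namely Sox10, Sox2, Pou3f1, Pou3f2, Pax3, Tfap2a, Foxd3, Zeb2, Nfatc4 and Yy1. They were chosen by name for their known roles in neural crest glia, and their rows were taken from tables of read counts for 17327 rat gene symbols. Of the 10 genes, 9 were found under their symbol, 8 had at least 1 count, and the same 8 passed the filter on low counts. Pax3 had 0 counts in all 6 libraries, and Foxd3 was not analysed here. The RNA came from primary Schwann cells, the glia of peripheral nerves, prepared from sciatic nerves of adult Wistar rats and grown on poly-L-lysine. All cells had been expanded with a soluble Neuregulin1 (NRG1) growth factor and with forskolin at 10 μM, which raises cAMP, before the growth factor was withdrawn while forskolin stayed in the medium. The 3 mock samples received the carrier solution and the 3 NRG1 samples received 10 nM recombinant soluble NRG1β1, both for 6 h. One mock and one NRG1 sample came from each of 3 independent cell preparations, called cultures 1, 2 and 3 after the numbers in the labels. These are cultured cells without axons, held in a differentiated direction by forskolin, so that no group is an untreated or an in vivo state.

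Schwann cells arise from the neural crest through precursor and immature stages, and each stage depends on a set of DNA-binding factors. Sox10 is needed at every stage and switches on Pou3f1 (Oct6, also known as SCIP), and Sox10 together with Pou3f1 and its relative Pou3f2 (Brn2) then activates Egr2, the master regulator of myelin genes. Yy1 and Nfatc4 are known to act on Egr2 downstream of NRG1 and calcium signalling. Sox2 and Pax3 hold cells in the immature state, Tfap2a marks precursors, Foxd3 acts in the neural crest, and Zeb2 promotes differentiation by repressing inhibitors of it. The comparison of NRG1 with mock asks how the RNA of these factors stood 6 h after the ligand was added.

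The libraries held from 6821590 to 15475018 counts on genes, so that 3 counts, taken as the floor of detection, corresponded to between 0.194 and 0.44 CPM, a unit of counts relative to the library total that was here scaled by the TMM method. All 6 Schwann cell markers examined were detected in every library. Culture 1 stood apart from the others. The Schwann cell markers summed to 2730 CPM in its mock and 2410 CPM in its NRG1 library, against 4310 to 5850 CPM in the other 4. The 8 fibroblast markers summed to 69700 CPM in its mock and 70900 CPM in its NRG1 library, against 15300 to 24100 CPM in the other 4 libraries, and Thy1, Dcn and Lum were counted only in culture 1, at 1241, 598 and 22.7 CPM in its mock library and at 0 in every library of cultures 2 and 3. The 4 mural cell markers summed to 2980 and 3040 CPM in culture 1 and to between 223 and 407 CPM elsewhere. In all libraries the 5 macrophage markers together reached at most 10.1 CPM and the 4 endothelial markers at most 14.9 CPM, the 4 neuronal markers reached at most 55.3 CPM, most of it from Tubb3, and the melanocyte markers Tyr and Mlana had 0 counts. None of the fibroblast or mural markers that could be tested passed the test of NRG1 against mock. Col3a1 came nearest, with a log2 fold change of -0.98 (adjusted p = 0.0118 by edgeR), going from 837 to 278 CPM in culture 2 and from 442 to 170 CPM in culture 3, while culture 1 had 21910 and 22760 CPM.

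Of the lineage factors, Tfap2a alone passed the test of NRG1 against mock, with a higher level, and this call did not hold in every fit. A gene was taken to pass when edgeR's quasi-likelihood test, paired by culture, gave an adjusted p of at most 0.01 over the 9740 genes tested, and to be regulated when its log2 fold change was also over 1 in size, the thresholds of the study. Only Tfap2a passed among the 8 factors tested, with a higher level under NRG1, against 11.8% of all genes tested in either direction and 6.31% in the upward one. With DESeq2, the method of the study, paired likewise, its adjusted p was 0.0106 and 0 of the 8 passed. No factor passed in the edgeR fits that left out any 1 culture. None of the 8 was regulated, against 3.47% of all genes. At an unadjusted p under 0.05, 5 of the 8 factors were reached, 3 with a higher and 2 with a lower level, against 35.7% of all genes. The log2 fold changes of the 8 factors had a median of 0.03, and those of all genes a median of -0.026. Sox2, Tfap2a and Yy1 were higher with NRG1 in all 3 cultures and Zeb2 and Nfatc4 were lower in all 3, where 26% and 29.9% of all genes had that behaviour. The share of these factors that passed is thus near that of genes in general.

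**Figure D1:**
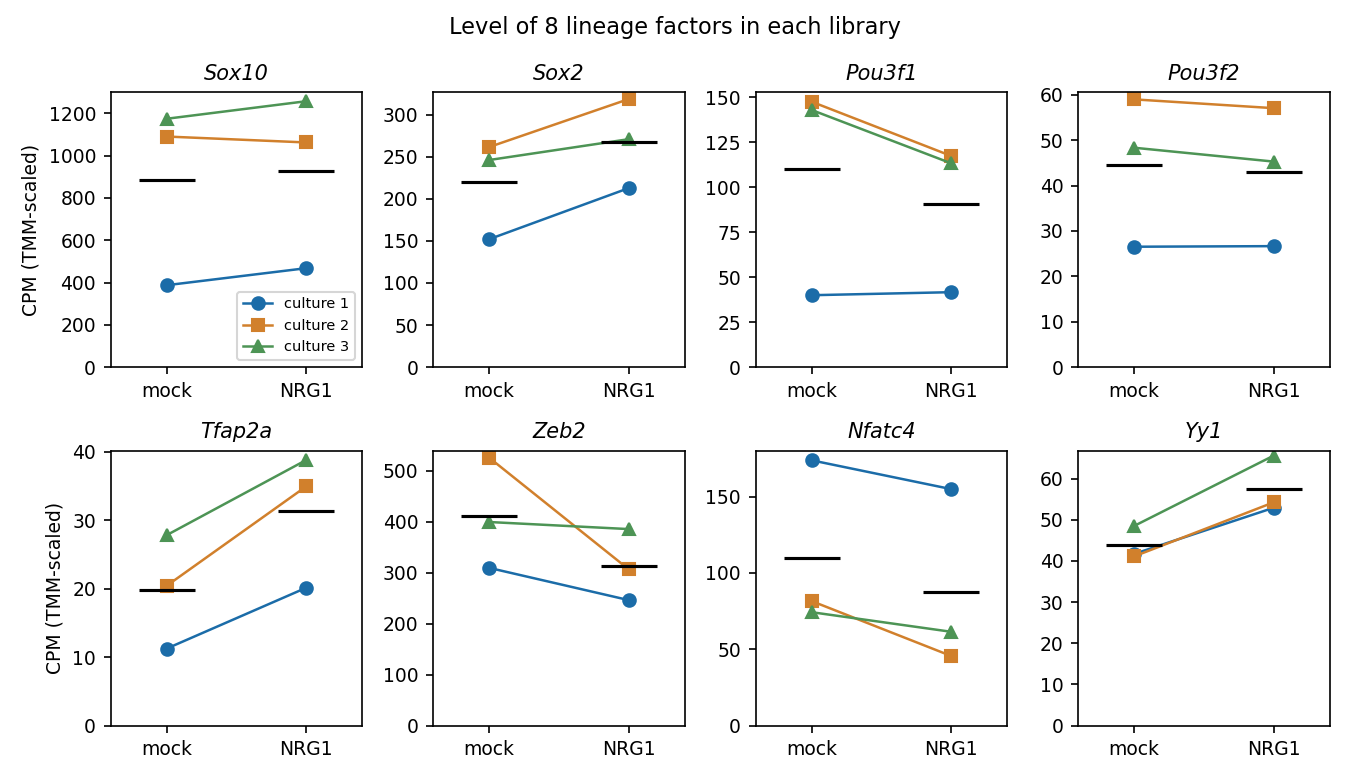
The TMM-scaled CPM of each lineage factor (vertical axis, starting at 0, with its own scale per gene) is shown for mock and NRG1 libraries (horizontal axis), with a line joining the samples of one culture and black bars for the mean of 3. The lines of Sox2, Tfap2a and Yy1 slope upward in every culture, and culture 1 is the lowest for 6 of the 8 genes in both groups and the highest for Nfatc4.

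Sox10 is the factor on which the lineage depends most, and its RNA did not pass the test of NRG1 against mock. Its level was 387, 1090 and 1174 CPM in mock cultures 1, 2 and 3 and 468, 1062 and 1257 CPM in the NRG1 samples of the same cultures. The groups overlapped almost completely, and the NRG1 sample was the higher one in cultures 1 and 3 and the lower one in culture 2. The log2 fold change was 0.11 ± 0.13 (SE, edgeR adjusted p = 0.579), with a 95% interval from -0.17 to 0.38. A change as large as that interval's upper end is not shown to be absent.

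Genes known to depend on Sox10 gave other values. Of 14 such genes, 11 could be tested, and 7 of them fell and 0 rose, against 5.51% and 6.31% of all genes. The study had already reported Pmp22, Egr2, Mag and Mbp as down-regulated in these samples, so the count is not independent of its results. The median log2 fold change of the 11 was -1.01. Without culture 1, 6 of 12 fell and 0 rose. Pmp22, which encodes a compact myelin protein, fell most by its p-value, from 1640 ± 806 to 563 ± 308 CPM (mean and SD, n = 3 in each group), which gave a log2 fold change of -1.57 ± 0.13 (SE, edgeR adjusted p = 3.93e-06). Cdh19, a cadherin of the glial lineage, fell from 200 ± 20.1 to 93.4 ± 18.1 CPM (mean and SD, n = 3 in each group), with a log2 fold change of -1.10. Egr2, the myelin regulator that Sox10 activates with the POU factors, fell by 1.71 on the log2 scale and was counted at 11.0, 23.1 and 21.3 CPM in mock cultures 1, 2 and 3 and at 4.84, 7.86 and 4.51 CPM with NRG1. Mag, an adhesion protein of myelin facing the axon, fell by 1.17 on the log2 scale. The other targets that fell were Mbp, Prx and S100b, of which S100b did not pass without culture 1 (adjusted p = 0.0571 by edgeR) or without culture 3 (adjusted p = 0.136 by edgeR). Erbb3, the NRG1 receptor subunit, had a log2 fold change of -0.21 and Gjb1 of -0.03, and neither passed. S100b and Cdh19 are also among the 6 Schwann cell markers, of which these 2 fell and 0 rose.

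**Figure D2:**
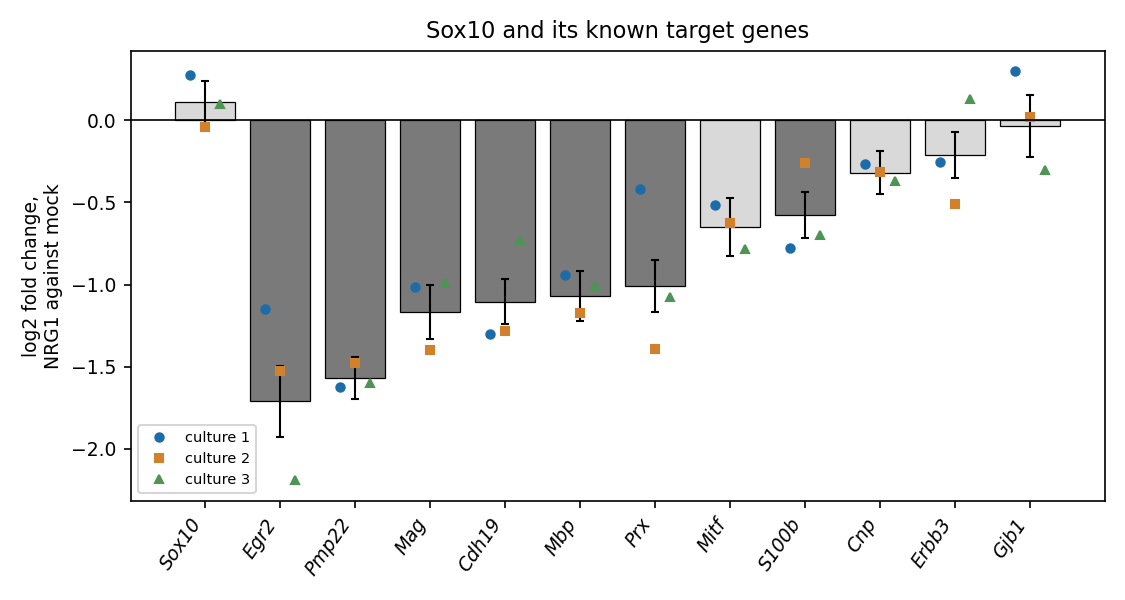
Bars give the fitted log2 fold change of NRG1 against mock (vertical axis) for Sox10 and 11 of its known target genes (horizontal axis), error bars are standard errors, points are the log2 ratios of the 3 cultures, and dark bars passed at an adjusted p of at most 0.01. Sox10 stands at 0.11 while Egr2 and Pmp22 stand at -1.71 and -1.57.

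Sox2, which keeps Schwann cells immature and holds back myelin genes, was higher with NRG1 in each culture but did not pass. The mock samples of cultures 1, 2 and 3 had 152, 262 and 246 CPM, and the NRG1 samples 213, 319 and 271 CPM. The ranges of the groups overlapped, since the NRG1 sample of culture 1 was below the mock samples of the other cultures. The log2 fold change was 0.30 ± 0.12 (SE, edgeR adjusted p = 0.0898), and the log2 ratios of cultures 1, 2 and 3 were 0.48, 0.28 and 0.14. Among the other SOX genes, 7 of 15 could be tested, of which 1 fell and 0 rose, where 5.51% of all genes fell and 6.31% rose. It was Sox8, the closest relative of Sox10 with Sox9, which fell from 34.0 ± 9.05 to 20.2 ± 6.62 CPM (mean and SD, n = 3 in each group), which gave a log2 fold change of -0.76 ± 0.14 (SE, edgeR adjusted p = 0.00161). The ratio was negative in all 3 cultures, at -0.95, -0.63 and -0.71, but Sox8 did not pass without culture 3. Without culture 1, Sox8 and Sox9 fell and Sox13 rose.

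The POU factors Pou3f1 and Pou3f2, which drive the step from the promyelinating to the myelinating cell, did not pass either. Pou3f1 was counted at 40.0, 148 and 143 CPM in mock cultures 1, 2 and 3 and at 41.7, 117 and 113 CPM with NRG1. It was lower with NRG1 in cultures 2 and 3, both with a log2 ratio of about -0.33, and had a ratio of 0.06 in culture 1. The fitted log2 fold change was -0.22 ± 0.12 (SE, edgeR adjusted p = 0.227), with a 95% interval from -0.48 to 0.05. Pou3f2, the relative that can stand in for Pou3f1, was counted at 26.5, 59.0 and 48.3 CPM in mock and 26.7, 57.0 and 45.3 CPM in NRG1 samples of the same cultures. Its log2 ratios lay between -0.09 and 0.01, and its log2 fold change was -0.05 (95% interval -0.32 to 0.22, adjusted p = 0.81 by edgeR). Of 11 other POU genes, 2 passed the filter on low counts, Pou2f1 and Pou6f1, and neither passed the test.

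Tfap2a, the AP-2α factor of neural crest cells and Schwann cell precursors, was the factor that rose. Its level went from 11.2 to 20.1 CPM in culture 1, from 20.4 to 34.9 CPM in culture 2 and from 27.8 to 38.8 CPM in culture 3. The mock and NRG1 ranges overlapped, with cultures that began from different levels, while the direction was the same in each. The mean of 3 mock samples was 19.8 ± 8.29 CPM (SD) and that of 3 NRG1 samples 31.3 ± 9.84 CPM (SD). The log2 fold change was 0.68 ± 0.14 (SE, edgeR adjusted p = 0.00418), a 1.6-fold rise with a 95% interval from 0.37 to 0.99 on the log2 scale, and 88.5% of the genes tested had a smaller change in size. DESeq2 with the same pairing gave a log2 fold change of 0.70 and an adjusted p = 0.0106, just outside the threshold, and leaving out culture 1, 2 or 3 gave adjusted p-values of 0.0161, 0.0122 and 0.0106. Without the pairing by culture it was 0.516. The raw counts behind these levels ran from 86 to 601. Across the 6 samples, the log2 CPM of RGD1304694, Dnaaf5 and Xpnpep1 followed that of Tfap2a most closely, each with a Pearson r of 0.997 or more. With 6 samples from 3 cultures a high r carries little weight, and 339 of the 9740 genes tested had an r over 0.95.

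The other neural crest factors showed no common direction. Of 19 genes, 9 could be tested, of which Snai1 rose and Rxrg fell, beside 6.31% and 5.51% of all genes. Snai1, a repressor of epithelial genes, went from 8.87 to 18.4 CPM in culture 2 and from 12.5 to 27.4 CPM in culture 3, and was far higher in culture 1, at 122 CPM in mock and 147 CPM with NRG1. Its log2 fold change was 0.75 ± 0.17 (SE, edgeR adjusted p = 0.0059), and it did not pass without culture 2 or without culture 3. Rxrg, a retinoid receptor of differentiating Schwann cells, fell by 1.26 on the log2 scale, a fall that the study had already reported. Tfap2c, the relative of Tfap2a, went from 8.89, 31.3 and 46.8 CPM to 13.5, 49.9 and 62.2 CPM in cultures 1, 2 and 3, which gave a log2 fold change of 0.55 with an adjusted p = 0.0102 by edgeR that narrowly missed the threshold. Pax3, the paired-box factor of immature and non-myelinating Schwann cells, had 0 counts throughout, which at these depths allows a level of up to between 0.194 and 0.44 CPM, for counting error only. Col1a2 was likewise at 0 in 5 of the 6 libraries, beside 13400 to 31460 CPM of Col1a1, and whether reads of Pax3 were assigned to its symbol was not tested.

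Zeb2 is a zinc-finger repressor that Schwann cells need to differentiate, and its level with NRG1 was lower in all 3 cultures without passing. In cultures 1, 2 and 3 it went from 310, 526 and 400 CPM in mock to 246, 307 and 386 CPM in NRG1 samples. The size of the difference varied, with log2 ratios of -0.33, -0.78 and -0.05, and culture 2 held most of it. The log2 fold change was -0.39 ± 0.14 (SE, edgeR adjusted p = 0.064), and it was -0.19 without culture 2. A list of 17 genes held the relative Zeb1 and cofactors of Zeb2, mostly of the NuRD and CtBP corepressor complexes. Of the 17, 15 could be tested, of which 4 rose and 0 fell, against 6.31% and 5.51% of all genes. Without culture 1, and likewise without culture 3, 2 rose. They were the corepressor Ctbp2, with a log2 fold change of 0.88 ± 0.13 (SE, edgeR adjusted p = 0.000288), the NuRD subunits Mbd3 with 0.66 and Gatad2a with 0.53, and Smad3, a signal transducer of TGF-beta that binds Zeb2, with 0.56. Ctbp2 and Mbd3 passed without culture 1, 2 or 3 alike, whereas Gatad2a and Smad3 did not pass without culture 1 or without culture 3. Of 7 genes known to be repressed by Zeb2 or its relatives, 0 rose and 1 fell (6.31% and 5.51% of all genes), namely Ednrb, the endothelin receptor B, which went from 215, 117 and 73.1 CPM to 79.7, 60.0 and 41.7 CPM in cultures 1, 2 and 3, with a log2 fold change of -1.07 ± 0.14 (SE, edgeR adjusted p = 9.29e-05). When culture 1 was left out Hes1 also passed, with a higher level, and when culture 3 was left out Id4 did.

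Nfatc4, a calcineurin-dependent factor that acts with Sox10 on Egr2, was likewise lower with NRG1 in each culture. Its level was 174, 81.6 and 74.3 CPM in mock cultures 1, 2 and 3 and 155, 45.6 and 61.5 CPM with NRG1. Unlike the other factors it was highest in culture 1, where both samples lay above all others. The log2 ratios were -0.17, -0.84 and -0.27, and the log2 fold change was -0.41 ± 0.14 (SE, edgeR adjusted p = 0.0426), above the threshold of 0.01. Without culture 2 the log2 fold change was -0.22. Of 13 genes of calcineurin and NFAT signalling, 12 could be tested, of which 2 fell and 0 rose, compared with 5.51% and 6.31% of all genes. Ppp3ca, the main catalytic subunit of calcineurin, went from 133, 186 and 154 CPM to 77.9, 89.2 and 101 CPM. The groups did not overlap, as for 9.86% of all genes with NRG1 lower. The log2 fold change was -0.82 ± 0.12 (SE, edgeR adjusted p = 0.000412). The other calcineurin subunits Ppp3cb, Ppp3r1 and Ppp3cc had log2 fold changes of 0.15, 0.11 and -0.37, and none of them passed. Akap5, a scaffold that binds calcineurin, fell by 1.30 on the log2 scale from a low mean of 9.01 CPM, and it did not pass without culture 3 (adjusted p = 0.0294 by edgeR), which leaves Ppp3ca. Rcan1, a feedback inhibitor and a common readout of calcineurin activity, had a log2 fold change of -0.26 (adjusted p = 0.131 by edgeR).

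Yy1, a zinc-finger factor that can activate or repress, was the only one of the 8 whose mock and NRG1 ranges did not overlap, while 9.79% of all genes tested had separate ranges with NRG1 higher and 9.86% with NRG1 lower. It was counted at 41.7, 41.1 and 48.5 CPM in mock cultures 1, 2 and 3 and at 52.9, 54.3 and 65.6 CPM with NRG1. The 3 log2 ratios, 0.34, 0.40 and 0.43, were close to each other. The mean went from 43.8 ± 4.11 to 57.6 ± 6.97 CPM (SD over 3 samples each), and the log2 fold change was 0.39 ± 0.12 (SE, edgeR adjusted p = 0.0311), which did not pass at 0.01. At an adjusted p of 0.05 Yy1 would be called higher and Nfatc4 lower, in addition to Tfap2a, where 23.2% of all genes are called in either direction. Of 14 partners of Yy1, 12 could be tested, of which 2 rose and 0 fell, compared with 6.31% and 5.51% of all genes. These were the ATPases Ruvbl2 and Ruvbl1 of the INO80 chromatin remodelling complex, with log2 fold changes of 1.14 ± 0.13 (SE) and 0.89 ± 0.13 (SE) and adjusted p-values of 5.31e-05 and 0.00035 by edgeR. Both also serve other complexes. The INO80 subunits Ino80, Actr5 and Actr8 had log2 fold changes of 0.09, 0.03 and 0.07 and did not pass.

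**Figure D3:**
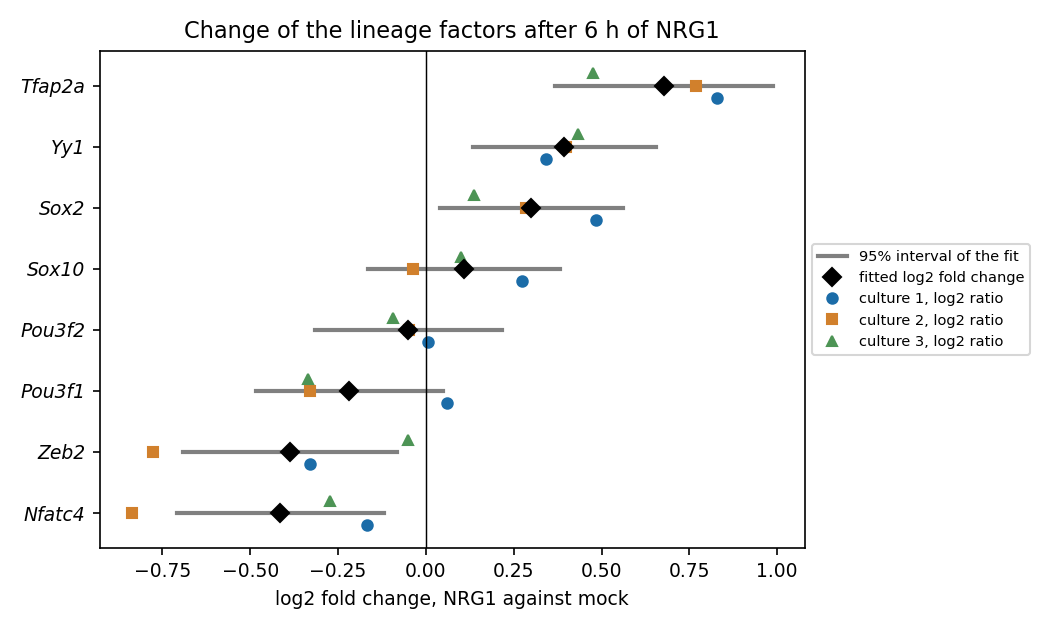
The horizontal axis gives the log2 fold change of NRG1 against mock for the 8 factors tested (vertical axis, in order of the change), with a diamond for the fitted value, a grey bar for its 95% interval and coloured points for the 3 cultures. The points of Tfap2a, Yy1 and Sox2 all lie to the right of 0 and those of Zeb2 and Nfatc4 all to the left.

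Promoter sequence was at hand for 6 of the 10 genes in the RefSeq table of the GRCr8 assembly, namely Sox2, Pou3f2, Pax3, Foxd3, Zeb2 and Yy1, and the 250 bases before the start of the gene were read from it. They are shown for Yy1, Sox2 and Zeb2, the 3 of these genes whose level moved one way in all 3 cultures. Capitals mark matches, on either strand, to the cAMP response element TGACGTCA, the AP-1 site TGACTCA, the octamer of POU factors ATGCAAAT, the SOX sites ACAAAG and ACAATG, the Zeb site CAGGTG, the AP-2 site GCCNNNGGC, the YY1 site AAGATGGC and the CCAAT box CCAAT. The Yy1 window is at chr6:133471365-133471614 (plus strand), the Sox2 window at chr2:119464881-119465130 (plus strand) and the Zeb2 window at chr3:49754324-49754573 (minus strand).
Yy1: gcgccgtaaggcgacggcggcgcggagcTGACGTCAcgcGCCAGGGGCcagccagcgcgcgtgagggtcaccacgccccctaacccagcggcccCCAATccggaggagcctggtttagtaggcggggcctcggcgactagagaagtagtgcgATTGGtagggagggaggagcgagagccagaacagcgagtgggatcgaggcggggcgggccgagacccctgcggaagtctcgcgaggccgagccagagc
Sox2: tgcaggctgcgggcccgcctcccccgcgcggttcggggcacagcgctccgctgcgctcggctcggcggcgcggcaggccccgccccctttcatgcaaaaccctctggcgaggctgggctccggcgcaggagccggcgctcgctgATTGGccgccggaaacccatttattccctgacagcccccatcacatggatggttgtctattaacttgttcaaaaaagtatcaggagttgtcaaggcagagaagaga
Zeb2: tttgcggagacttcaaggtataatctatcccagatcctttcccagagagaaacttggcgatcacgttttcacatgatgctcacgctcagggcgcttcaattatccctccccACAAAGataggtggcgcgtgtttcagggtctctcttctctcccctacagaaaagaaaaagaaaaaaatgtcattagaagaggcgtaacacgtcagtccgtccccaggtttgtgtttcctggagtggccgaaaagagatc

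The Yy1 window held a complete cAMP response element 222 bases before the start, which 1.59% of 33469 rat promoter windows of that length hold. The same element was found in the window of Foxd3 and in none of the other 4. Forskolin was in the medium of mock and NRG1 cells alike. The Yy1 window also had 1 AP-2 site, found in 12.6% of windows, and 2 CCAAT boxes, found in 34% of windows. Sox2 had 1 CCAAT box, and Zeb2 had 1 SOX site 139 bases before the start, a sequence that 16.3% of windows contain. The shorter core TGACG of the cAMP response element, present in 18.2% of windows and not capitalised where it stands alone, occurred once in the Zeb2 window, 50 bases before the start, and once in that of Pax3, 135 bases before it. None of the 6 windows matched the octamer, the AP-1, Zeb or YY1 site. In base composition the Yy1 window was 70.8% G and C and that of Sox2 64.4%, against 47.6% for Zeb2 and a median of 51.2% over all windows. A match is a stretch of letters, and no binding was measured.

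More of the factors differed between cultures than between mock and NRG1. In the same fit, a test of any difference among the 3 cultures passed for 6 of the 8, all but Zeb2 and Yy1, against 23.4% of all genes. Pou3f1 had the smallest adjusted p of the 8, 1.77e-06, and in mock culture 1 its level was 0.275 times the geometric mean of the other mock cultures. Sox10 followed at 0.342 times (adjusted p = 9.79e-06 by edgeR), Tfap2a at 0.476, Pou3f2 at 0.50 and Sox2 at 0.599 times. Nfatc4 was 2.23 times as high in mock culture 1 as in the others (adjusted p = 8.31e-06 by edgeR), and in the NRG1 samples 2.91 times. With cultures 2 and 3 alone, 0 of the 8 factors passed, where 2.47% of the genes tested did. The 6 calls therefore rest on culture 1, the one with the high fibroblast and mural markers. Of the 6 Schwann cell markers, 4 passed the culture test, and these 4 were lower in mock culture 1. Ngfr had 1013 CPM there and 2511 and 2685 CPM in the mock samples of cultures 2 and 3. In the same order Erbb3 had 414 CPM beside 1019 and 903 CPM, S100b 986 CPM beside 1285 and 1859 CPM, and L1cam 53.3 CPM beside 119 and 115 CPM. Cdh19 and Gfap did not pass the culture test (adjusted p = 0.423 and 0.241 by edgeR). The part of these markers in the lower level of the lineage factors was not tested. In such bulk RNA, fewer Schwann cells and less of an RNA per Schwann cell cannot be told apart.

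**Figure D4:**
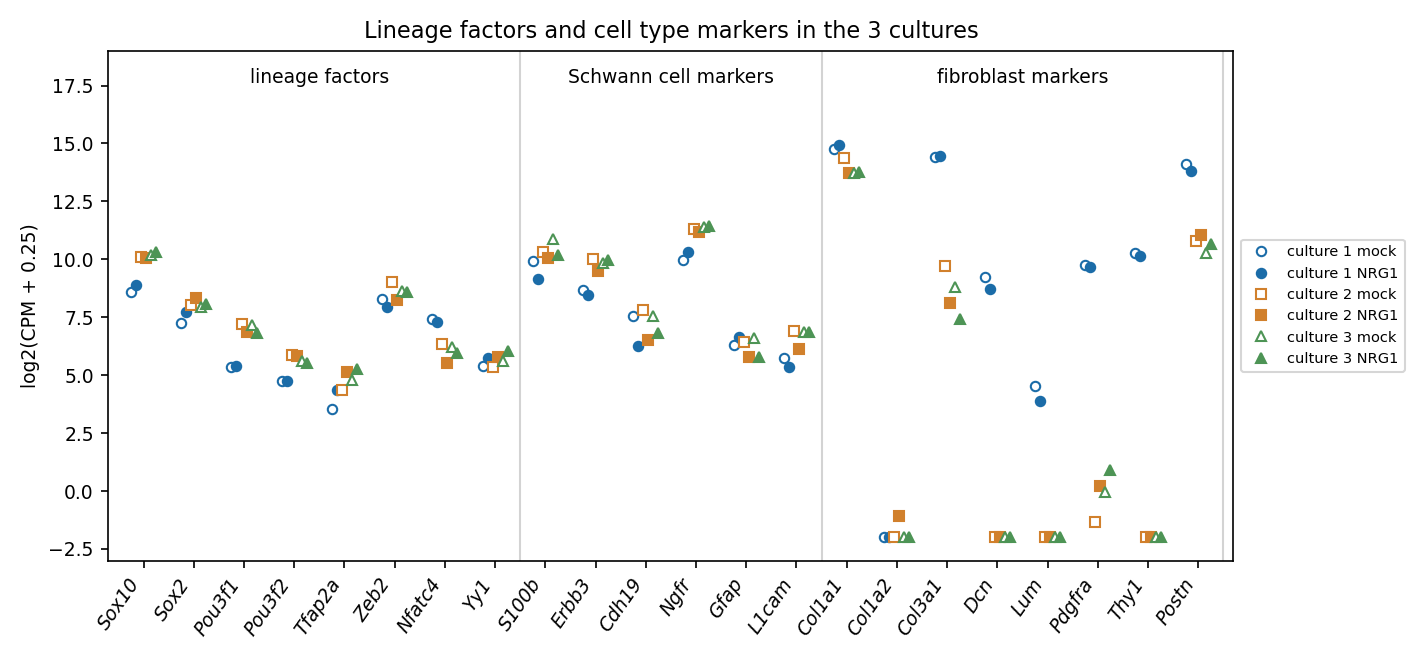
Levels as log2(CPM + 0.25) (vertical axis) are shown for the 8 lineage factors, 6 Schwann cell markers and 8 fibroblast markers (horizontal axis) in the 3 cultures, with open symbols for mock and filled ones for NRG1. Culture 1 lies below the others for Sox10 and Pou3f1 and above them for Nfatc4, and Dcn, Lum and Thy1 sit at the bottom of the axis in cultures 2 and 3.

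The levels were also set against Sox10, a scale chosen after the data were seen. The count of each factor was divided by that of Sox10 in the same library. The count of Pou3f1 was between 10.3% and 13.5% of that of Sox10 in mock and between 8.91% and 11.1% in NRG1 samples. Culture 1 was at 10.3% and 8.91%, the low end of both ranges. Pou3f2 lay between 3.6% and 6.85% over all libraries. On this scale Tfap2a became the one factor whose groups did not overlap, with 1.87% to 2.9% in mock and 3.08% to 4.3% in NRG1 samples. Of all genes, 1.57% had separate ranges with NRG1 higher and 2.66% with NRG1 lower. In CPM these shares were 9.79% and 9.86%, and the ranges of Tfap2a overlapped. Sox10 was itself lower in culture 1, so the shares depend on the gene used as divisor, and the separation is no further test of Tfap2a. Nfatc4 stayed apart in culture 1, at 44.9% in mock and 33.1% with NRG1, against at most 7.48% in the other cultures, and Yy1 was at 10.8% and 11.3% in culture 1 and at most 5.22% elsewhere. Gene length cancels when one ratio is compared between libraries, but not when ratios of different genes are compared. Over the 6 samples the log2 CPM of Sox10 had a Pearson r of 0.97 with Pou3f1, 0.92 with Pou3f2, 0.86 with Sox2 and 0.83 with Tfap2a, of 0.67 with Zeb2 and 0.38 with Yy1, and of -0.91 with Nfatc4. The 6 points come from 3 cultures, and both samples of culture 1 lie apart in Sox10, Sox2, Pou3f1, Pou3f2 and Nfatc4, whereas in Tfap2a its NRG1 sample, at 20.1 CPM, is beside the mock sample of culture 2, at 20.4 CPM.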

How the data were processed

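Poly(A) RNA of 3 mock and 3 NRG1 samples was sequenced by Illumina. The authors aligned reads to rn5 with TopHat2 2.0.10 and used HTSeq to count reads over RefSeq genes, and these deposited counts carry no normalization. HTSeq summary lines (50.1% to 53.0% of alignments) were kept out of all totals. Condition and replicate number came from the labels. The numbers mark 3 independent cell preparations, so samples were paired by them. Deviations of same-numbered samples from their group means correlated across genes at 0.91, 0.67 and 0.81. Unmatched samples of cultures 2 and 3 also correlated, at 0.51, and those of culture 1 with the others at -0.8 to -0.71. No 2 libraries agreed within sampling noise.

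Genes were filtered with filterByExpr (minimum count 10), normalized with TMM and fitted with edgeR 4.0.16 in R 4.3.3 by a quasi-likelihood model with replicate block and condition, p-values being adjusted by Benjamini-Hochberg over 9740 genes. The 95% intervals use the moderated degrees of freedom. Log2 ratios of single cultures use a prior count of 2. Fibroblast genes counted only in culture 1 were removed by the filter, as 2 libraries are too few. The study's methods use DESeq2, here an alternative (1.42.0). The code was tested on simulated data. P-values of NRG1 against mock measure how the difference within pairs varied over 3 cultures, with that spread moderated across genes. Differences in level between cultures are taken up by the block.

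Genes named are all 10 factors, the genes of each related list that passed (at most 4 by p), and the 3 genes most correlated with a factor that passed. Other genes (such as Erbb3, Tfap2c, Rcan1 and Ino80) were named after their values were seen. The factors and lists were chosen with earlier results of these data known. A few genes of the related lists are not reported here, and counts and medians of those lists leave them out. Alternatives were no replicate block, DESeq2, RLE, no filter, leaving out each culture, an adjusted p of 0.05, a fold change threshold placed inside the test, thinned counts and, chosen after seeing the data, counts relative to Sox10.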

Additional observations from a re-analysis of the deposited data

How the results depend on the processing

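The direction of all 8 factors was the same under each of the 8 alternatives that fit the fold change anew, the other two changing only what counts as a pass. The log2 fold change of Tfap2a ranged from 0.62 to 0.83, that of Sox10 from 0.03 to 0.19, of Zeb2 from -0.54 to -0.19 and of Nfatc4 from -0.54 to -0.22. The number of factors that rose, 1 in the paired fit, was 1 with RLE normalization, without the filter and with thinned counts, 2 at an adjusted p of 0.05, 0 with DESeq2 and 0 with the fold change threshold inside the test. It was 0 to 0 when a replicate was left out. The number that fell, 0, became 1 at an adjusted p of 0.05. Without the replicate block, 0 factors rose, 0 genes rose and 0 fell in all, with a smallest adjusted p of 0.14, and the adjusted p of Tfap2a was 0.516. Leaving out the pairing raised the common biological coefficient of variation from 0.12 to 0.37. Over all genes, 615 rose and 537 fell in the paired fit. These counts were 1124 and 1136 at an adjusted p of 0.05, 13 and 9 with the threshold inside the test, and 857 fell with no filter. Leaving out a replicate gave 408 to 590 genes that rose and 253 to 601 that fell. The number of factors that differed between cultures, 6, ranged from 0 to 7 when a replicate was left out, and over all genes it went from 2278 to 3543 without the filter, 3538 at an adjusted p of 0.05 and from 245 to 3783 with a replicate left out. The cause of each move was not tested. The floor for Pax3 covers counting error alone.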
